A study of Homo sapiens with 15 samples.

Results

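The genes described here are 50 genes of mitosis and of the passage from G2 into mitosis, taken by name from a list and found among the 57736 genes of a deposited count table. Each of the 50 symbols matched 1 Ensembl identifier, and all 50 passed the filter on low counts that left 15994 genes tested. The table holds RNA-seq counts of the human cell line IMR90, fibroblasts from fetal lung, in 15 libraries that form 5 groups of 3. Senescent cells were given the compound TRi-1 (written Tri-1 in the labels), an inhibitor of the thioredoxin reductase TXNRD1, or its vehicle DMSO. Other senescent cells carried a short hairpin against TXNRD1 (shTXNRD1) or were labelled as the control, and growing cells labelled as the control form the fifth group. The labels used here give no inducer of senescence, no dose or time of TRi-1, no sequence or nature of the control for the hairpin, and no statement that replicates were separate cultures, so that p-values measure the spread between these samples. Each inhibition is a single reagent, 1 hairpin and 1 compound, in 1 cell line.

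Cells enter mitosis when CDK1 bound to cyclin B is activated, and they leave it when the anaphase-promoting complex, switched on by CDC20, marks cyclin B and securin for destruction. Most genes of this programme are silent in resting and early G1 cells and are transcribed late in the cycle. In resting cells the DREAM complex, built on the MuvB core, binds a promoter element called the cell cycle homology region (CHR) and represses them; in cycling cells the same core works with B-MYB (MYBL2) and FOXM1 to activate them, together with NF-Y at CCAAT boxes. Senescent cells have left the cycle for good and keep such genes low, often with a high level of the CDK inhibitor p21. TXNRD1 keeps thioredoxin reduced.

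Promoters of 42 of the 50 genes were found in a RefSeq table of 300-base windows (build GRCh38.p14, 250 bases before and 50 after the start). For each of these genes the first window listed was used. The shares of all windows count every window, not 1 per gene and not only the genes tested. They were searched on both strands for the CHR letters TTTGAA, for their variant TTCGAA, and for CCAAT, the box bound by NF-Y. TTCGAA reads the same on both strands, and matches of different motifs could share their end bases, which none of those printed below did. TTTGAA was present in 29 of the 42 windows (69.1%), against 15.2% of all 35116 windows in the table. TTCGAA was present in 3 windows (7.14%, against 1.45% of all), and 31 windows held at least 1 of the 2 hexamers (73.8%, against 16.4%). CCAAT stood in 31 windows (73.8%, against 34.6%) and at least 2 copies stood in 18 (42.9%, against 10.8%). Both kinds of letters were found in 25 windows (59.5%, against 6.38% of all windows), and 5 windows had none of them (11.9%, against 55.4%), namely those of CDC25C, MELK, KIF2C, CENPE and MYBL2. The sequences below show the promoters of the mitotic cyclins, of the kinase PLK1 and of the activator CDC20, then those of ECT2, which departs from the other genes in the results, and MYBL2, which had the largest fall with the hairpin. ECT2 and MYBL2 were chosen after their values were seen. Capitals mark the hexamers and the CCAAT boxes; the first capitals of CDC20 read TTCAAA because the hexamer lies on the other strand there.
CCNB1 (chr5:69166900-69167199, plus strand): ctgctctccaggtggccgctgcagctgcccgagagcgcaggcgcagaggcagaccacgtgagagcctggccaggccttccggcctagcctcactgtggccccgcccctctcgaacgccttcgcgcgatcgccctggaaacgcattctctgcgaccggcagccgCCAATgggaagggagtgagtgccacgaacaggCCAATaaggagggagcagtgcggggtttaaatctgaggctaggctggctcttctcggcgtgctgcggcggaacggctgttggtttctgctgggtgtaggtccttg
CCNB2 (chr15:59104896-59105195, plus strand): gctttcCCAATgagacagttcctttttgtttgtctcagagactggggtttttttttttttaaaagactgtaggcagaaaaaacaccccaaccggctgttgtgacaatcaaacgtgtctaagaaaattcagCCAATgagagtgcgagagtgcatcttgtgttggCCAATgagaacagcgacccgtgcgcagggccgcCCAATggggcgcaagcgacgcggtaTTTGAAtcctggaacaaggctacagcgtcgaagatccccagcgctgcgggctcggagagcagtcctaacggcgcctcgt
PLK1 (chr16:23678639-23678938, plus strand): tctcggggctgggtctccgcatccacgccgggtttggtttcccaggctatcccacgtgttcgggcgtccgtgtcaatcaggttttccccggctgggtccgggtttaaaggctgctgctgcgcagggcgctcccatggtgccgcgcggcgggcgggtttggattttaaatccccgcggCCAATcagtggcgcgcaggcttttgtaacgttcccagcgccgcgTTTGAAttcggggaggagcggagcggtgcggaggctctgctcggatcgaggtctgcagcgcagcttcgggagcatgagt
CDC20 (chr1:43358731-43359030, plus strand): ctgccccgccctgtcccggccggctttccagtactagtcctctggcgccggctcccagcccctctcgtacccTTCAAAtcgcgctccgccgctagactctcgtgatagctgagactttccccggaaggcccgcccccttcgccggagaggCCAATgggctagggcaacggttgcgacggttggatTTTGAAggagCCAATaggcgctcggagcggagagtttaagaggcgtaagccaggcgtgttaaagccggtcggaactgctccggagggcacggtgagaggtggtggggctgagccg
ECT2 (chr3:172750476-172750775, plus strand): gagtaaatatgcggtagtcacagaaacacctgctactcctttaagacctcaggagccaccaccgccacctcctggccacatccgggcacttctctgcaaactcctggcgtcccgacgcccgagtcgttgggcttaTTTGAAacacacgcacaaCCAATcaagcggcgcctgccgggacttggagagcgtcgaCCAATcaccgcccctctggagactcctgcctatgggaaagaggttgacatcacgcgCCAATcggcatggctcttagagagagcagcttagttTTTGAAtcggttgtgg
MYBL2 (chr20:43666864-43667163, plus strand): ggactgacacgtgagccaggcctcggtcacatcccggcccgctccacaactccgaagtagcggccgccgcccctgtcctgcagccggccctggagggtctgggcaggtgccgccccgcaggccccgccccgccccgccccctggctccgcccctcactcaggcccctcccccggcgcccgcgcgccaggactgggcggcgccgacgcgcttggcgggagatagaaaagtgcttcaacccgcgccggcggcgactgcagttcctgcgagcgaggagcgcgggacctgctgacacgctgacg
With the start site as 0, TTTGAA began at -29 in both CCNB2 and PLK1. The CCNB2 window holds 4 CCAAT copies and the PLK1 window 1. CCNB1 had 2 CCAAT copies, at -87 and -55, and neither hexamer. Only these 2 hexamers were searched, so other forms of the element would be missed. ECT2 had 2 TTTGAA copies, at -115 and 34, and 3 CCAAT copies, at -97, -58 and -2. Both kinds of letters were thus present, as in CCNB2, PLK1 and CDC20, but at other positions. Any part of the positions in its departure was not tested. A match is a match of letters and not a measured site, and no match says nothing of the factors.

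Library totals ran between 18033076 and 28909046 counts, and the members' own counts between 8 (CDC25C) and 8363 (TOP2A) in a library. Levels are given as CPM, a gene's counts relative to the library total after scaling by the trimmed mean of M-values (TMM), are not divided by gene length, and are compared only between samples of 1 gene. The hairpin's target TXNRD1 (ENSG00000198431) had 21.04, 21.6 and 25.3 CPM in shTXNRD1 cells, against 506, 511 and 528 in senescent control cells (log2 change -4.51 ± 0.08, adjusted p = 2.02e-13). In TRi-1 cells its RNA was at 431 ± 11.6 CPM, against 408 ± 19.3 CPM in DMSO cells (SD, n = 3 each; log2 change 0.08 ± 0.07, adjusted p = 0.483); this compound is directed at the protein. The 10 fibroblast markers summed to 25940 to 26290 CPM in TRi-1 cells, 32240 to 34720 in DMSO cells, 24740 to 27150 in shTXNRD1 cells, 29420 to 31450 in senescent control cells and 28120 to 32740 in growing cells. Of these 10, 7 were called lower and 1 higher with TRi-1 (median log2 change -0.81), beside 12.2% and 7.64% of all genes tested. With shTXNRD1, 6 were called lower and 2 higher (median -0.77), beside 24.8% and 25.8%. In these comparisons most thus fell, as the mitotic genes did. In senescent control against growing cells 4 were lower and 2 higher (median -0.06), beside 29.5% and 27.4%. In DMSO against senescent control cells 3 were lower and 2 higher (median 0.08), beside 7.87% and 8.36%. Summed levels of 6 leukocyte markers ran 90.7 to 92.7 CPM in TRi-1 cells, 56.1 to 73.5 in DMSO cells, 18.7 to 37.9 in shTXNRD1 cells, 71.9 to 79.9 in senescent control cells and 15.5 to 25.5 in growing cells; CD3E was at 0 in all libraries and CD68 held most of the sum. The 5 endothelial markers measured summed to 51.7 to 55.02, 85.3 to 91.1, 105 to 133, 159 to 172 and 109 to 134 CPM in the same order of groups, mostly TEK, with CDH5 at 0 in growing cells. The 6 epithelial markers summed to between 45.8 and 82.8 CPM. Transcripts of the 50 genes had a median GC content of 42.4%, against 49.1% over the genes tested, and across 15433 genes the log2 change was correlated with GC content in each comparison. Spearman's rho was 0.28 for senescent control against growing cells, -0.32 for shTXNRD1 against senescent control, 0.31 for TRi-1 against DMSO, -0.12 for DMSO against senescent control and -0.42 for the difference between the inhibitions. The part of the markers and of GC content in the results was not tested beyond the GC-corrected counts given below. The counts of members called are given with and without that correction.

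As a percent of the mean of the 3 growing libraries, the median over the 50 genes was 17.5% in TRi-1 cells, 24.7% in DMSO cells, 9.95% in shTXNRD1 cells and 16.5% in senescent control cells. In single libraries the median lay between 16.9% and 18.1% with TRi-1, between 24.1% and 25.5% with DMSO, between 9.24% and 10.3% with shTXNRD1 and between 16.2% and 17.4% in the senescent control. The 3 libraries of each senescent group thus lay closer to each other than to those of any other senescent group, except that TRi-1 and senescent control libraries overlapped. The growing libraries themselves had medians of 93.4% to 110%. Fewer cells in the cycle and less mitotic RNA per cell cannot be told apart in these bulk samples.

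**Figure D1:**
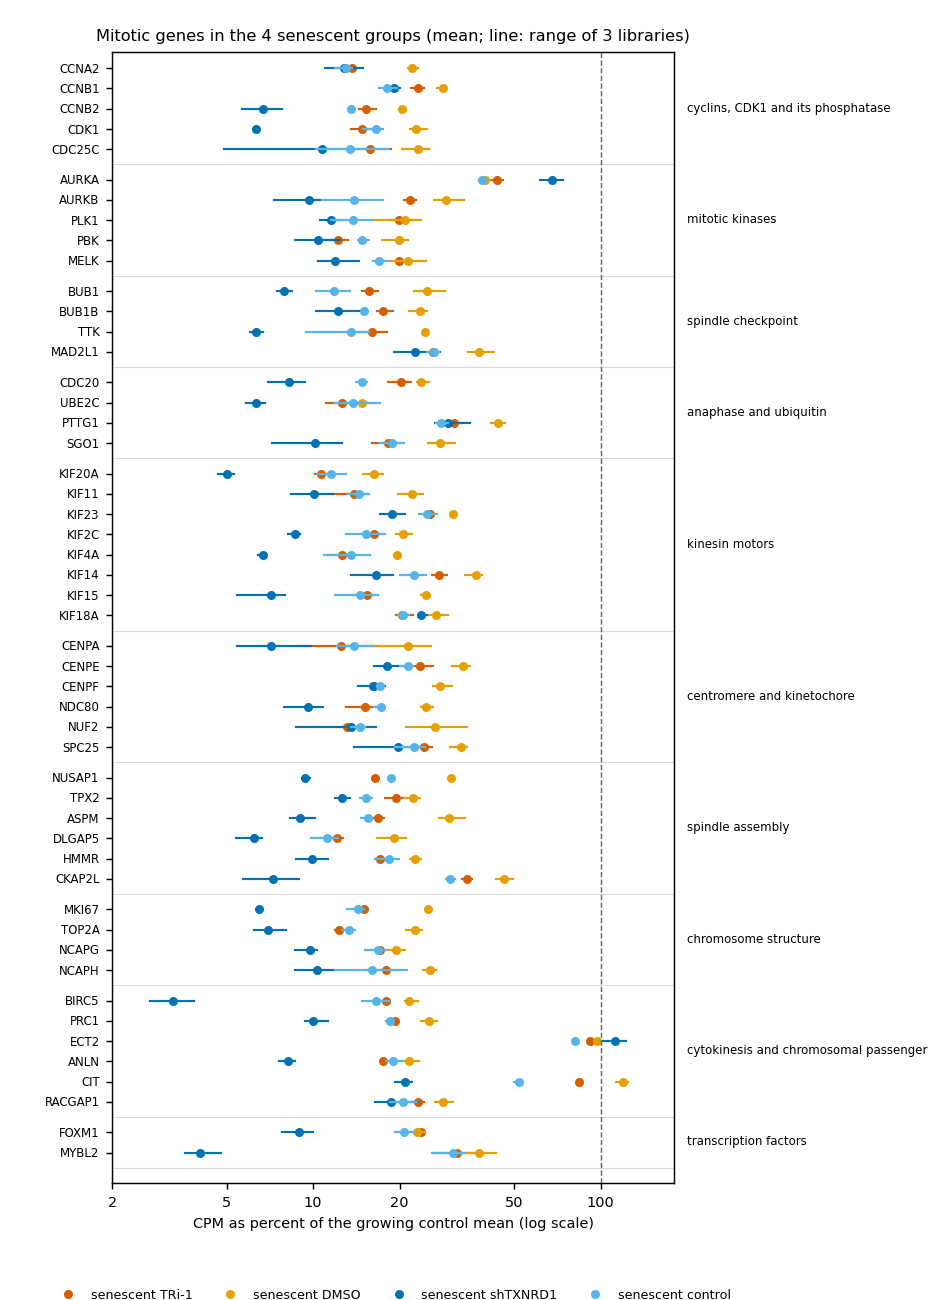
Level of each of the 50 genes in the 4 senescent groups, as a percent of the growing control mean (log axis); points are means of 3 libraries and lines their range, and genes are grouped by role. The medians over the genes are 17.5% with TRi-1, 24.7% with DMSO, 9.95% with shTXNRD1 and 16.5% in the senescent control, while ECT2 lies between 81.2% and 112.5%.

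Set against growing cells, senescent control cells had less RNA of all 50 genes (50 of 50 called lower at an adjusted p under 0.05 by edgeR's quasi-likelihood test, where 29.5% of all genes tested were called lower). The median log2 change was -2.60 over the 50 genes and 0.03 over all genes tested. For 48 genes the fall was at least 2-fold and for 43 at least 4-fold, and in all 50 every senescent control library lay below every growing one, as in 32.2% of all genes tested. With the GC correction 49 were called lower (30.4% of all genes tested), and the gene lost was ECT2. The 3 largest falls were in DLGAP5, KIF20A and BUB1.

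DLGAP5 (ENSG00000126787), a spindle microtubule protein also known as HURP, had 5.84, 4.99 and 6.201 CPM in senescent control cells, against 57.4, 47.8 and 47.6 in growing cells (log2 change -3.16 ± 0.12, adjusted p = 2.46e-11). KIF20A (ENSG00000112984), a kinesin of the central spindle and of cytokinesis, had 8.48, 9.59 and 7.601 CPM in senescent control cells, against 79.5, 72.9 and 69.5 in growing cells (log2 change -3.11 ± 0.10, adjusted p = 2.48e-12). BUB1 (ENSG00000169679), a kinase of the spindle checkpoint, had 5.799, 4.99 and 6.55 CPM in senescent control cells, against 53.98, 47.9 and 44.7 in growing cells (log2 change -3.08 ± 0.12, adjusted p = 4.42e-11). All 3 genes were thus at 11.2% to 11.8% of their growing level. By role, the median log2 change was -2.88 for the 5 cyclin, CDK1 and CDC25C genes, -2.81 for the 4 checkpoint genes, -2.76 for the 5 mitotic kinases, -2.74 for the 8 kinesins and -2.73 for the 4 genes of chromosome structure. It was -2.59 for the 4 anaphase genes, -2.57 for the 6 spindle assembly genes, -2.54 for the 6 centromere and kinetochore genes, -2.34 for the 6 cytokinesis genes and -1.99 for the transcription factors FOXM1 and MYBL2.

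A set of widely used cell-cycle genes shows how the 15 libraries line up. MKI67 (ENSG00000148773), the proliferation antigen Ki-67 that coats mitotic chromosomes, had 34.3, 34.1 and 34.6 CPM in TRi-1 cells, 56.2, 57.9 and 57.4 in DMSO cells, 14.9, 14.5 and 14.8 in shTXNRD1 cells, 29.9, 33.6 and 34.2 in senescent control cells, and 250, 216 and 217 in growing cells. Its TRi-1 and senescent control libraries overlapped and no other pair of groups did. TOP2A (ENSG00000131747), the topoisomerase that untangles sister DNA, had 35.7, 38.1 and 37.6 CPM in TRi-1 cells, 71.9, 63.3 and 68.96 in DMSO cells, 18.8, 19.7 and 24.2 in shTXNRD1 cells, 40.2, 37.97 and 42 in senescent control cells, and 332, 289 and 282 in growing cells. Again the TRi-1 and senescent control libraries overlapped, with the shTXNRD1 libraries below and the DMSO libraries above them. CDK1 (ENSG00000170312), the kinase that drives entry into mitosis, had 8.45, 7.902 and 7.23 CPM in TRi-1 cells, 13.3, 11.7 and 11.6 in DMSO cells, 3.299, 3.41 and 3.37 in shTXNRD1 cells, 9.12, 9.34 and 7.95 in senescent control cells, and 58.8, 53.4 and 47.8 in growing cells. Its shTXNRD1 libraries all lay below every other library.

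CCNB1 (ENSG00000134057), cyclin B1 and the partner of CDK1, had 19.6, 20.4 and 18.4 CPM in TRi-1 cells, 24.3, 24.4 and 22.8 in DMSO cells, 15.1, 16.9 and 16.2 in shTXNRD1 cells, 14.3, 14.9 and 16.5 in senescent control cells, and 89.1, 86.4 and 77.3 in growing cells. Its shTXNRD1 and senescent control libraries overlapped, unlike those of CDK1. PLK1 (ENSG00000166851), a kinase of spindle poles and kinetochores, had 5.35, 5.31 and 6.42 CPM in TRi-1 cells, 4.51, 6.64 and 6.77 in DMSO cells, 3.35, 3.54 and 3.02 in shTXNRD1 cells, 4.62, 3.86 and 3.3 in senescent control cells, and 24.9, 31.9 and 29.1 in growing cells. Neither pair of inhibited and control libraries separated for PLK1. FOXM1 (ENSG00000111206), an activator of late cell-cycle genes, had 12.3, 11.97 and 11.9 CPM in TRi-1 cells, 10.5, 12.1 and 12.5 in DMSO cells, 5.099, 4.55 and 3.97 in shTXNRD1 cells, 11.5, 10.3 and 9.85 in senescent control cells, and 46.6, 53.8 and 52.6 in growing cells. BIRC5 (ENSG00000089685), survivin of the chromosomal passenger complex, had 7.79, 7.21 and 7.903 CPM in TRi-1 cells, 8.86, 8.86 and 9.85 in DMSO cells, 1.15, 1.36 and 1.64 in shTXNRD1 cells, 7.02, 7.81 and 6.301 in senescent control cells, and 39.9, 42.95 and 44.8 in growing cells. For both FOXM1 and BIRC5 every shTXNRD1 library lay below every other library.

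**Figure D2:**
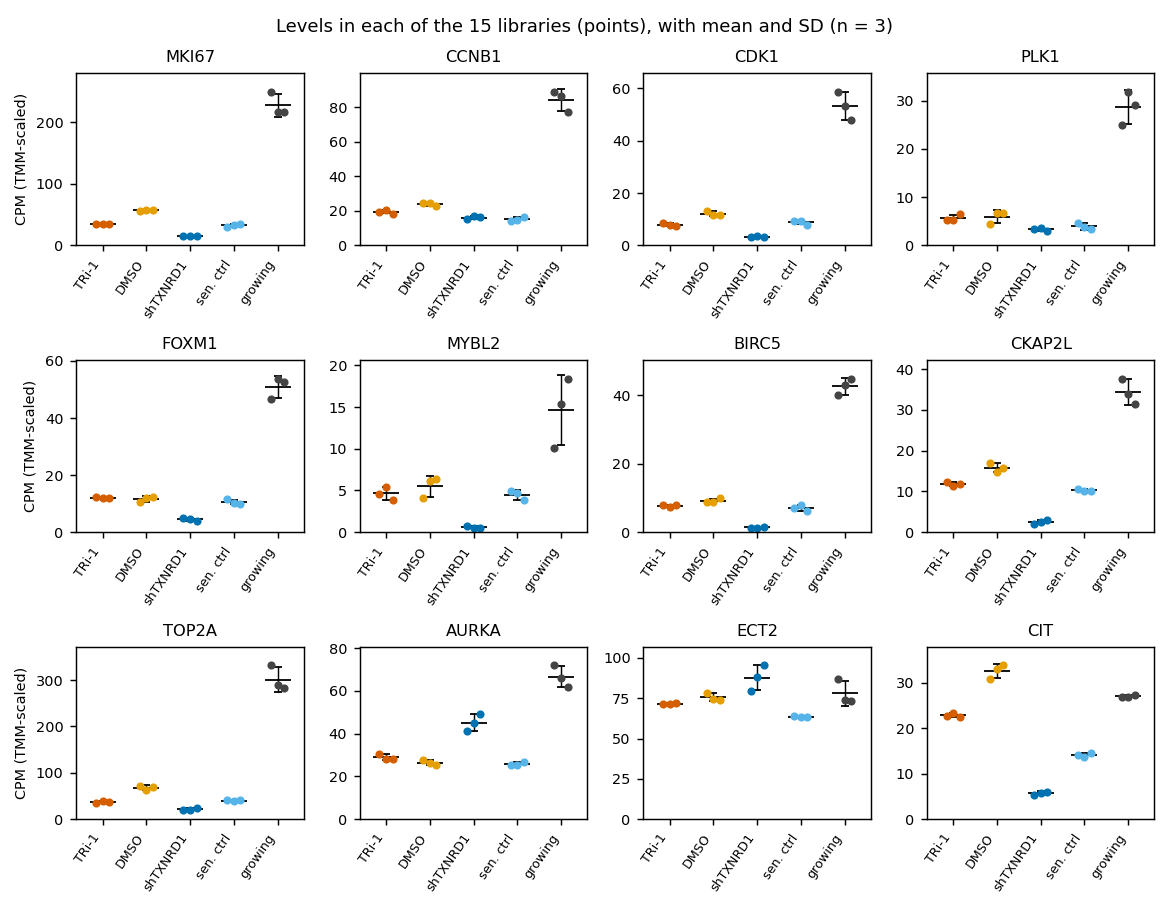
TMM-scaled CPM of 12 mitotic genes in each of the 15 libraries (points) with the mean and SD of each group (n = 3); axes start at 0. MKI67, TOP2A and CDK1 are highest in growing cells and lowest with shTXNRD1, MYBL2 and BIRC5 are near the bottom of the axis with shTXNRD1 alone, and AURKA and ECT2 are higher with shTXNRD1 than in the senescent control.

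Among the senescence differences, ECT2, CIT and AURKA were the smallest. ECT2 (ENSG00000114346), an exchange factor that turns on RhoA at the division plane, had 63.9, 63.1 and 63.1 CPM in senescent control cells, against 87.2, 73.7 and 73.1 in growing cells (log2 change -0.30 ± 0.08, adjusted p = 0.00351; with the GC correction -0.05, adjusted p = 0.18). CIT (ENSG00000122966), citron kinase of the midbody, had 14.03, 13.6 and 14.5 CPM in senescent control cells, against 26.9, 26.9 and 27.4 in growing cells (log2 change -0.95 ± 0.07, adjusted p = 2.1e-08). AURKA (ENSG00000087586), a kinase of centrosomes and spindle poles, had 25.4, 25.4 and 26.9 CPM in senescent control cells, against 71.9, 66.2 and 62.02 in growing cells (log2 change -1.37 ± 0.08, adjusted p = 2.15e-09). Every other member was lowered at least 3-fold.

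The 2 senescent controls were not at the same height. DMSO cells were above senescent control cells in all 50 genes by the fitted change, and 39 were called higher and 0 lower, where 8.36% of all genes tested were called higher. The median log2 change was 0.60, against -0.01 over all genes tested, and 11 genes were not called. An unadjusted p under 0.05 was reached by 45 genes, all of them higher, as by 14.3% of all genes tested, and DESeq2 called 36 higher (7.88% of all genes tested) and 0 lower. In 42 genes every DMSO library lay above every senescent control library, as in 19.5% of all genes tested. With the GC correction 45 genes were called higher (16.9% of all genes tested), and without any 1 library between 30 and 34 were. The labels do not say how the 2 kinds of control otherwise differ, so that the vehicle and any other difference between these cultures cannot be told apart.

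The widest gaps were CIT, with 30.7, 33 and 33.8 CPM in DMSO cells, against 14.03, 13.6 and 14.5 in senescent control cells (log2 change 1.21 ± 0.07, adjusted p = 1.54e-07), BUB1, with 14.1, 11.3 and 10.97 CPM in DMSO cells, against 5.799, 4.99 and 6.55 in senescent control cells (1.06 ± 0.12, adjusted p = 5e-05), and AURKB, a kinase of the chromosomal passenger complex (ENSG00000178999), with 3.94, 5.01 and 4.06 CPM in DMSO cells, against 2.03, 2.62 and 1.6 in senescent control cells (1.05 ± 0.21, adjusted p = 0.00296). For all 3 the DMSO libraries lay above the senescent control libraries. MKI67 was 1.76-fold higher (0.81 ± 0.07, adjusted p = 2.94e-06) and TOP2A 1.70-fold higher (0.76 ± 0.09, adjusted p = 6.88e-05). All 8 kinesins, all 4 checkpoint genes, 5 of 6 centromere and kinetochore genes and 5 of 6 spindle assembly genes were called higher. Neither transcription factor was: the log2 change was 0.15 ± 0.10 for FOXM1 (adjusted p = 0.369) and 0.30 ± 0.23 for MYBL2 (adjusted p = 0.434), though both were called with the GC correction. AURKA (0.03 ± 0.08, adjusted p = 0.889) was the closest to 0. Of the 39 calls, 12 were lost when some single library was left out. Those of ECT2 (0.26 ± 0.08, adjusted p = 0.0311) and the kinetochore gene SPC25 (0.54 ± 0.17, adjusted p = 0.0477) were lost without each of the 6 libraries compared. Those of KIF18A, KIF23 and PBK were lost without each of 5, those of PLK1 (0.60 ± 0.17, adjusted p = 0.0255) and RACGAP1 without each of 4, and those of BIRC5 (0.39 ± 0.11, adjusted p = 0.0222) and NCAPH without each of 3. KIF2C, NDC80 and NUF2, a kinetochore protein of the NDC80 complex (0.86 ± 0.22, adjusted p = 0.0152), lost theirs without each of 2. Their adjusted p values then lay between 0.055 and 0.169 and their changes remained above 0. KIF18A and SPC25 were also not called by DESeq2 (adjusted p = 0.0825 and 0.101), nor was PBK (adjusted p = 0.0525).

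**Figure D3:**
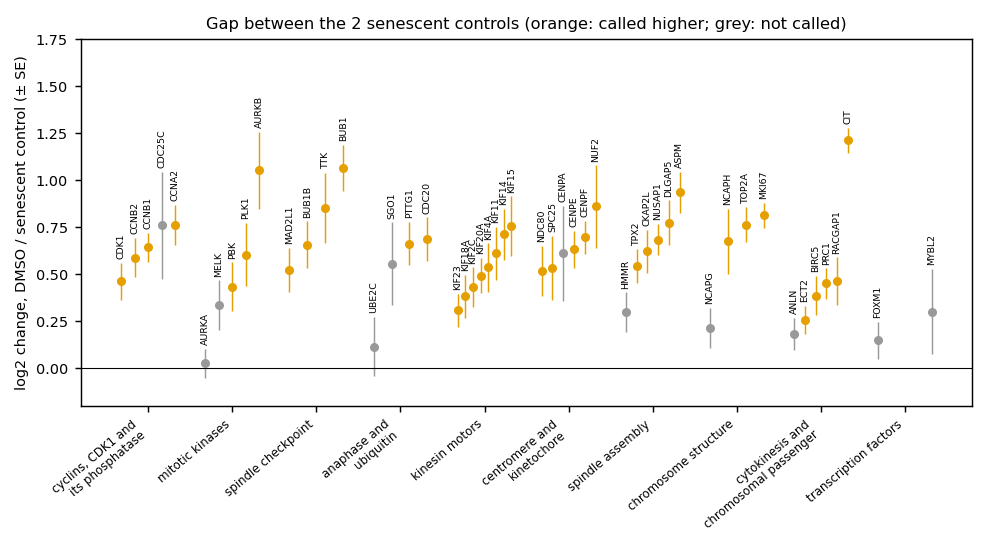
Log2 change of DMSO over senescent control for each of the 50 genes, by role, with SE; orange points were called higher and grey points were not called. All points are above 0, CIT is the highest at 1.21, and FOXM1, MYBL2 and AURKA are among those not called.

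Measured from DMSO cells, the distance to growing cells was shorter. Lower calls numbered 48 (30.8% of all genes tested were called lower) and higher calls 1 (27.5% of all genes tested), with a median log2 change of -2.02 over the 50 genes and 0.01 over all genes tested. Falls of at least 4-fold were seen in 27 genes here, against 43 from the senescent control; these comparisons share the growing libraries. The 3 largest falls were in UBE2C, the conjugating enzyme of the anaphase-promoting complex (ENSG00000175063; log2 change -2.75 ± 0.15, adjusted p = 1.39e-09), in KIF20A (-2.62 ± 0.09, adjusted p = 1.15e-11) and in DLGAP5 (-2.39 ± 0.12, adjusted p = 3.32e-10). UBE2C had 3.84, 4.43 and 4.998 CPM in DMSO cells, against 30.5, 31.6 and 27.5 in growing cells. KIF20A had 12.3, 12.9 and 11.01 CPM in DMSO cells, against 79.5, 72.9 and 69.5 in growing cells. DLGAP5 had 10.7, 8.49 and 9.92 CPM in DMSO cells, against 57.4, 47.8 and 47.6 in growing cells. In all 3 genes the DMSO libraries lay below the growing libraries. CIT was the single gene called higher, with 30.7, 33 and 33.8 CPM in DMSO cells, against 26.9, 26.9 and 27.4 in growing cells (log2 change 0.26 ± 0.06, adjusted p = 0.00284). ECT2 was not called, at -0.04 ± 0.07 (adjusted p = 0.65), and with the GC correction it was called higher at 0.13 (adjusted p = 0.0026). That correction called 48 genes lower (31.5% of all genes tested) and 2 higher (35.3%). CIT was thus called below growing cells from the senescent control and above them from DMSO cells.

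The hairpin lowered most of these genes further. In shTXNRD1 cells against senescent control cells, 34 of the 50 genes were called lower (24.8% of all genes tested), 2 were called higher (25.8% of all genes tested) and 14 were not called. The median log2 change was -0.78, against -0.01 over all genes tested, and 14 genes fell at least 2-fold. Called lower were all 6 spindle assembly genes, all 4 genes of chromosome structure, 7 of 8 kinesins and both transcription factors, and 2 of 6 centromere and kinetochore genes and 2 of 5 of the cyclin, CDK1 and CDC25C genes. All 6 centromere and kinetochore genes had a fitted change below 0, and differences between roles were not tested. With the GC correction 39 genes were called lower and 2 higher (29.6% of all genes tested in each direction). Of the 34 calls, 4 were lost without some library: TPX2 without senescent control replicate 1 (adjusted p = 0.0648) or shTXNRD1 replicate 2 (0.0533), KIF14 without senescent control replicate 3 (0.0792) or shTXNRD1 replicate 1 (0.0746), CENPA without senescent control replicate 3 (0.0506) or shTXNRD1 replicate 2 (0.0627), and NCAPH without senescent control replicate 3 (0.103) or shTXNRD1 replicate 3 (0.0557).

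MYBL2 (ENSG00000101057), which encodes B-MYB, the activating partner of the MuvB core, had 0.6998, 0.525 and 0.545 CPM in shTXNRD1 cells, against 4.95, 4.696 and 3.8 in senescent control cells (log2 change -2.92 ± 0.29, adjusted p = 1.69e-06). Its level in shTXNRD1 cells was 4.04% of the growing mean, against 30.7% in senescent control cells. BIRC5, whose libraries are given above, fell to 3.24% of the growing mean, against 16.5% in senescent control cells (log2 change -2.35 ± 0.13, adjusted p = 3.22e-09). CKAP2L (ENSG00000169607), a spindle protein, had 1.95, 2.45 and 3.07 CPM in shTXNRD1 cells, against 10.7, 9.99 and 10.2 in senescent control cells (log2 change -2.05 ± 0.13, adjusted p = 1.89e-08). These 3 were the genes lowered at least 4-fold, and none of their libraries overlapped between the groups.

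CDK1 fell 2.62-fold (adjusted p = 1.33e-07), CIT 2.47-fold (adjusted p = 3.8e-09) and FOXM1 2.33-fold (adjusted p = 4.25e-07). MKI67 was 2.21-fold lower (-1.14 ± 0.07, adjusted p = 1.32e-08) and TOP2A 1.92-fold lower (-0.94 ± 0.10, adjusted p = 1.75e-06). Both regulators that act on MuvB promoters, FOXM1 and MYBL2, were thus among the genes with large falls. Cyclin genes did not move as one. CCNB2, cyclin B2 (ENSG00000157456), had 1.9, 2.63 and 2.23 CPM in shTXNRD1 cells, against 4.66, 4.499 and 4.45 in senescent control cells (2.01-fold lower, adjusted p = 6.4e-06). CCNB1 was at 0.08 ± 0.08 (adjusted p = 0.443) and CCNA2, cyclin A2 (ENSG00000145386), at -0.02 ± 0.11 (adjusted p = 0.88), with 7.798, 6.87 and 9.27 CPM in shTXNRD1 cells, against 7.42, 8.503 and 8.401 in senescent control cells. PLK1 (-0.25 ± 0.18, adjusted p = 0.256), AURKB (-0.52 ± 0.23, adjusted p = 0.0748), PTTG1 or securin (0.08 ± 0.12, adjusted p = 0.591), KIF18A, a kinesin that damps chromosome movement (0.21 ± 0.12, adjusted p = 0.15), RACGAP1, a component of centralspindlin (-0.14 ± 0.13, adjusted p = 0.406), and CENPF, a large kinetochore protein (-0.08 ± 0.09, adjusted p = 0.503), were not called either. CENPF and RACGAP1 were called lower with the GC correction, and AURKB was when 1 senescent control library (replicate 3) was left out (adjusted p = 0.032), as RACGAP1 was without shTXNRD1 replicate 3 (adjusted p = 0.0194).

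Against the direction of the rest, AURKA and ECT2 rose with the hairpin. AURKA had 41.2, 44.9 and 49.2 CPM in shTXNRD1 cells, against 25.4, 25.4 and 26.9 in senescent control cells, with no overlap (log2 change 0.80 ± 0.08, adjusted p = 1.19e-06), which put it at 67.6% of the growing mean, against 38.8% in senescent control cells. ECT2 had 79.7, 88.1 and 95.4 CPM in shTXNRD1 cells, against 63.9, 63.1 and 63.1 in senescent control cells, again with no overlap (log2 change 0.47 ± 0.08, adjusted p = 0.000129), at 113% of the growing mean, against 81.2%. Counts of a processed copy listed as AURKAP1 came to 42 over all libraries, against 12871 for AURKA itself.

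TRi-1 lowered mitotic genes from the higher level of its vehicle. In TRi-1 cells against DMSO cells, 32 of the 50 genes were called lower, where 12.2% of all genes tested were, 0 were called higher, and 18 were not called. Of the 50, 39 had an unadjusted p under 0.05, all of them lower, as had 18.8% of all genes tested, and DESeq2 called 28 lower (11% of all genes tested) and 0 higher. The median log2 change was -0.46, against 0.01 over all genes tested, and in 42 genes every TRi-1 library lay below every DMSO library, as in 25.1% of all genes tested. A fall of at least 2-fold was seen in 1 gene. With the GC correction 39 were called lower (18.8% of all genes tested) and 1 higher (15.9%), and without any 1 library between 23 and 28 were called.

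NUF2 (ENSG00000143228) had 2.04, 2.22 and 1.86 CPM in TRi-1 cells, against 5.34, 3.795 and 3.26 in DMSO cells (log2 change -1.01 ± 0.22, adjusted p = 0.00559). TOP2A (-0.87 ± 0.09, adjusted p = 1.63e-05) and NUSAP1, a spindle protein (ENSG00000137804), came next; NUSAP1 had 7.69, 7.76 and 7.57 CPM in TRi-1 cells, against 14.2, 14.2 and 13.8 in DMSO cells (log2 change -0.87 ± 0.08, adjusted p = 7.22e-06). In these genes the TRi-1 libraries lay below the DMSO libraries with a clear gap. All 8 kinesins and all 4 checkpoint genes were called lower, and 4 of the 5 cyclin, CDK1 and CDC25C genes were, but 1 of 5 mitotic kinases and neither transcription factor. The calls of the kinesins KIF23, KIF2C, KIF14 and KIF18A were lost with DESeq2, at adjusted p between 0.0574 and 0.0673. Of the 32 calls, 11 were lost without some library: that of KIF23 without each of the 6 libraries compared, those of KIF14, KIF2C and the checkpoint gene TTK without each of 5, those of KIF18A and the checkpoint gene BUB1B without each of 4, those of ANLN and HMMR without each of 3, that of CKAP2L without each of 2 and that of CCNB2 without 1, beside CCNB1 below. MKI67 was 1.67-fold lower (-0.74 ± 0.07, adjusted p = 4.22e-06), CDK1 1.55-fold lower (-0.63 ± 0.10, adjusted p = 0.000526) and CCNA2 1.61-fold lower (-0.69 ± 0.11, adjusted p = 0.000494). CCNB1 was 1.22-fold lower (-0.29 ± 0.08, adjusted p = 0.0177), and that call was lost without each of 4 of the 6 libraries compared (adjusted p 0.053 to 0.0705).

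FOXM1 was at 0.04 ± 0.10 (adjusted p = 0.809), MYBL2 at -0.26 ± 0.23 (adjusted p = 0.477), PLK1 at -0.07 ± 0.16 (adjusted p = 0.798), BIRC5 at -0.27 ± 0.10 (adjusted p = 0.089) and ECT2 at -0.08 ± 0.07 (adjusted p = 0.495), and none of them was called. BIRC5 was called lower with the GC correction (-0.33, adjusted p = 0.0111), as was MYBL2 (-0.45, adjusted p = 0.00943). AURKA was at 0.14 ± 0.08 (adjusted p = 0.243) and was called higher with that correction (0.19, adjusted p = 0.00219). Median levels of the 50 genes in TRi-1 cells (17.5% of growing cells) were near those of senescent control cells (16.5%), a pair that was not tested. The fall with TRi-1 and the gap between the senescent controls share the DMSO libraries.

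A test of the difference between the effects, shTXNRD1 over senescent control minus TRi-1 over DMSO, called 16 genes lower (19.5% of all genes tested) and 8 higher (22.1% of all genes tested), and 26 were not called. Against those shares of all genes, 16 of 50 is more and 8 of 50 is fewer. With the GC correction 25 were lower (25.1% of all genes tested) and 5 higher (25%). The median difference was -0.13, against -0.03 over all genes tested, and moved to -0.36 with the GC correction and -0.06 with upper-quartile scaling. The hairpin lowered more steeply MYBL2 (difference -2.67 ± 0.38, adjusted p = 7.68e-05), BIRC5 (-2.08 ± 0.17, adjusted p = 4.12e-07), CKAP2L (-1.61 ± 0.17, adjusted p = 6.8e-06) and FOXM1 (-1.26 ± 0.15, adjusted p = 1.28e-05). MKI67 (-0.41 ± 0.10, adjusted p = 0.00414) and CDK1 (-0.76 ± 0.15, adjusted p = 0.000972) were also in this set. Differences the other way, where TRi-1 lowered a gene that the hairpin did not, were largest for NUF2 (0.90 ± 0.32, adjusted p = 0.0366), CENPF (0.69 ± 0.13, adjusted p = 0.000609) and CCNA2 (0.67 ± 0.15, adjusted p = 0.00356). AURKA (0.66 ± 0.11, adjusted p = 0.000298) and ECT2 (0.55 ± 0.11, adjusted p = 0.000951), both of which rose with the hairpin, were higher too. GC content was 60.22% for MYBL2, 54.49% for FOXM1 and 52.31% for BIRC5, but 48.27% for MKI67, 41.98% for CKAP2L and 35.6% for CDK1. It was 45.4% for AURKA, 42.13% for CCNA2, 40.02% for CENPF, 39.15% for NUF2 and 38.29% for ECT2. Its part in single genes was not tested beyond the GC correction. The call for NUF2 was lost with the GC correction (adjusted p = 0.117) and without each of 8 of the 12 libraries compared, and those for CCNB1, CDC20 and KIF18A were lost with the GC correction. KIF2C and HMMR, among the 16 lower, lost theirs with DESeq2 (adjusted p = 0.0557 and 0.0683).

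The libraries behind these differences were as follows for genes not yet given in full. MYBL2 had 4.63, 5.45 and 3.85 CPM in TRi-1 cells, against 4.04, 6.17 and 6.34 in DMSO cells, which overlapped. CKAP2L had 12.3, 11.3 and 11.8 CPM in TRi-1 cells, against 17.1, 14.8 and 15.7 in DMSO cells. NUF2 had 2.399, 1.36 and 2.58 CPM in shTXNRD1 cells, against 2.11, 2.32 and 2.35 in senescent control cells, which overlapped. CENPF had 24.3, 23.8 and 24.5 CPM in TRi-1 cells, 44.9, 39.6 and 38.8 in DMSO cells, 21.3, 24.5 and 26.3 in shTXNRD1 cells, and 25.2, 25.4 and 25.5 in senescent control cells. CCNA2 had 8.45, 8.595 and 8.495 CPM in TRi-1 cells, against 14.5, 13.3 and 13.5 in DMSO cells and, as given above, overlapping libraries in shTXNRD1 and senescent control cells. For CENPF and CCNA2 the TRi-1 libraries lay below the DMSO libraries. PTTG1 had 11.96, 9.94 and 11.5 CPM in TRi-1 cells, 14.9, 16.7 and 15.9 in DMSO cells, 9.498, 9.63 and 12.6 in shTXNRD1 cells, and 9.81, 9.64 and 10.6 in senescent control cells. KIF18A had 5.29, 5.22 and 6.001 CPM in TRi-1 cells, 7.93, 6.69 and 7.099 in DMSO cells, 6.25, 6.26 and 6.74 in shTXNRD1 cells, and 5.52, 5.34 and 5.801 in senescent control cells. Both were lower in every TRi-1 library than in DMSO cells, while with the hairpin PTTG1 overlapped its control and KIF18A lay above it. AURKA had 30.7, 28.1 and 28.3 CPM in TRi-1 cells, against 27.5, 26.5 and 25.1 in DMSO cells. ECT2 had 71.5, 71.2 and 72.3 CPM in TRi-1 cells, against 78.5, 74.8 and 74.1 in DMSO cells. With TRi-1 the AURKA libraries lay above and the ECT2 libraries below those of DMSO cells, and neither gene was called.

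Side by side, 23 genes were called lower by both inhibitions and 7 by neither. They were 67.6% of the 34 lower with the hairpin, beside 64% of all 50 genes that were lower with TRi-1, and 71.9% of the 32 lower with TRi-1, beside 68% of all 50 that were lower with the hairpin, so the shares were close. Over all genes tested, 868 were called lower by both. They were 21.9% of the 3971 lower with the hairpin, beside 12.2% of all genes that were lower with TRi-1. They were also 44.4% of the 1954 lower with TRi-1, beside 24.8% of all genes that were lower with the hairpin, so these shares were further apart. These comparisons share no library. Over the 50 genes the log2 changes had a Pearson r of 0.10 and a Spearman rho of 0.12, as a description over genes that are not independent of each other.

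**Figure D4:**
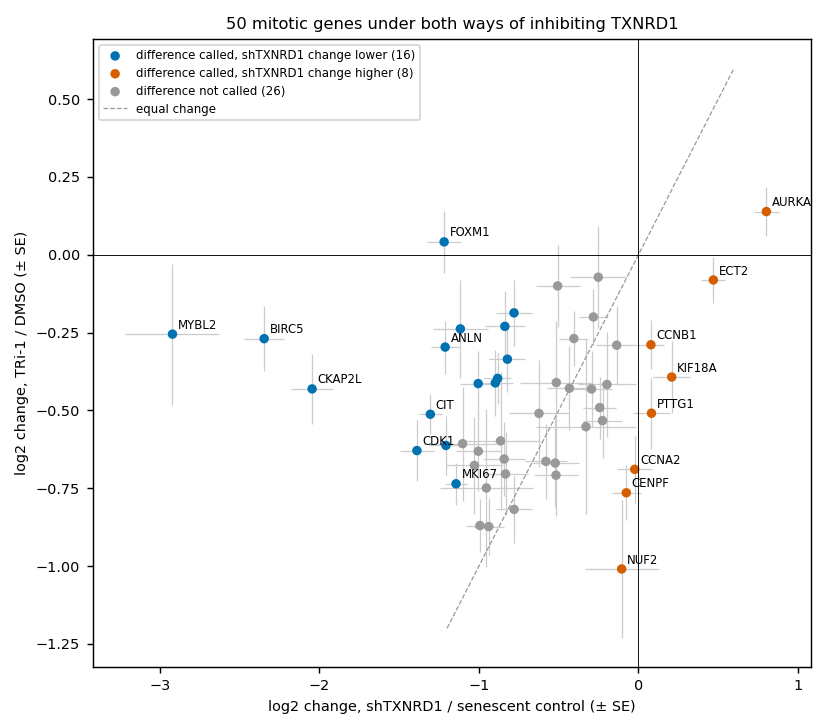
Log2 change with TRi-1 over DMSO (vertical) against log2 change with shTXNRD1 over senescent control (horizontal) for the 50 genes, with SE; colours give the call of the difference between them, and the dashed line marks equal change. MYBL2, BIRC5 and CKAP2L lie left of -2 horizontally, AURKA and ECT2 lie right of 0, and CCNA2, CENPF and NUF2 lie near 0 horizontally and low vertically.

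Promoter letters can be set beside these changes for the 42 genes with a window. No window was found for AURKA, PBK, TTK, UBE2C, TPX2, BIRC5, RACGAP1 and FOXM1. The counts thus leave out AURKA, which rose with the hairpin, and BIRC5 and FOXM1, which had large falls. With shTXNRD1, 23 of the 31 genes with either hexamer searched were called lower and 1 higher (median log2 change -0.84). Of the 11 without one, among them CCNB1, 5 were called lower (median -0.51). With TRi-1, 24 of 31 with a hexamer (median -0.53) and 6 of 11 without one (median -0.49) were called lower. For senescent control against growing cells the medians were -2.58 with and -2.65 without a hexamer, and all were called lower. The differences between genes with and without a hexamer were not tested.

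Another 50 mitotic genes outside the list gave a similar count for senescence and a smaller one for TRi-1. This list was also chosen with earlier results of these data known, so it is not an independent check. The counts of other lists here and below stand beside these shares of all genes tested: 29.5% lower and 27.4% higher in senescent control against growing cells, 24.8% lower and 25.8% higher with shTXNRD1, 12.2% lower and 7.64% higher with TRi-1, and 7.87% lower and 8.36% higher in DMSO against senescent control cells. All 50 were lower in senescent control than in growing cells (median log2 change -2.04), among them SPAG5, the spindle protein astrin (-2.42 ± 0.07, adjusted p = 2.48e-12), and CDCA8, borealin (-3.01 ± 0.10, adjusted p = 7.74e-12). With shTXNRD1, 32 were lower and 2 higher (median -0.53), with falls in CEP55 (-1.56 ± 0.13, adjusted p = 2.22e-07), which recruits the cell-abscission machinery, and DEPDC1 (-1.29 ± 0.13, adjusted p = 1.38e-06). The rises were in CKS2, a small CDK-binding subunit, with 39.3, 37.1 and 40.3 CPM in shTXNRD1 cells, against 22.2, 23.3 and 22.6 in senescent control cells (log2 change 0.78 ± 0.06, adjusted p = 2.16e-07), and in CENPW, a centromere protein (0.55 ± 0.11, adjusted p = 0.00115). With TRi-1, 18 were lower and 1 higher (median -0.31): NCAPD2, a condensin subunit (-0.44 ± 0.06, adjusted p = 0.000123), and KNTC1, a kinetochore checkpoint protein (-0.65 ± 0.09, adjusted p = 0.000243), fell, and CKS2 was again the one that rose (0.27 ± 0.06, adjusted p = 0.0089), a call lost with no filter on low counts (adjusted p = 0.0618). DMSO cells had 22 of the 50 higher than senescent control cells and 0 lower (median 0.35), with SPAG5 (0.56 ± 0.07, adjusted p = 0.000148) and NCAPD2 (0.42 ± 0.06, adjusted p = 0.000233) at the smallest p.

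Machinery that works with these genes but is present outside mitosis had smaller median changes. Of 16 subunits and cofactors of the anaphase-promoting complex, 7 were lower in senescent control than in growing cells and 0 higher (median log2 change -0.22). With shTXNRD1, 4 were higher and 2 lower, which is no more than the share of all genes. The changes with the hairpin ran from -1.19 to 0.52, so the largest was a fall. The subunit CDC23 was lower in senescence (-0.78 ± 0.09, adjusted p = 3.02e-06) and higher with the hairpin (0.52 ± 0.09, adjusted p = 0.000209). Of 10 cohesin genes, 7 were lower and 1 higher in senescence (median -0.40), including SMC3 (-1.16 ± 0.10, adjusted p = 3.47e-07) and SMC1A (-0.76 ± 0.06, adjusted p = 1.23e-07); 4 were higher and 1 lower with shTXNRD1, where STAG1 rose (0.63 ± 0.10, adjusted p = 8.54e-05) and the loader NIPBL fell (-0.53 ± 0.08, adjusted p = 8.87e-05). Of 12 DREAM and MuvB genes, 9 were lower and 1 higher in senescence (median -0.44), with the pocket protein RBL1 at -1.86 ± 0.13, adjusted p = 1.78e-08. With shTXNRD1, 4 of the 12 were higher and 4 lower: TFDP2, a dimer partner of E2F factors, rose (0.83 ± 0.07, adjusted p = 1.91e-07), as did E2F5 (0.78 ± 0.11, adjusted p = 3.86e-05), and RBL1 fell (-0.55 ± 0.13, adjusted p = 0.00348). With TRi-1, 3 of the 12 were lower and 1 higher, among them RBL2, the p130 pocket protein of DREAM (-0.46 ± 0.08, adjusted p = 0.00114), which was higher in DMSO than in senescent control cells (0.36 ± 0.08, adjusted p = 0.00696).

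Of 14 regulators of G2 arrest, 12 were tested. In senescent control against growing cells, 3 were higher and 5 lower (median log2 change -0.02). CDKN1A, which encodes p21, had 1685, 1795 and 1666 CPM in senescent control cells, against 290, 369.5 and 359 in growing cells (log2 change 2.34 ± 0.10, adjusted p = 7.34e-11). PLK3, a stress-responsive kinase, was also higher (1.63 ± 0.22, adjusted p = 4.01e-05), and GADD45B, a stress-induced gene, was lower (-1.98 ± 0.15, adjusted p = 4.02e-08). With shTXNRD1, 6 were higher and 2 lower, and the log2 changes ran from -0.67 to 1.34. The genes named here for the hairpin are rises. WEE1, the kinase that holds CDK1 inactive, had 45.99, 47.8 and 59.9 CPM in shTXNRD1 cells, against 20.1, 19.7 and 21.2 in senescent control cells (log2 change 1.34 ± 0.10, adjusted p = 5.2e-08), set beside 38.6, 34.4 and 35.2 CPM in growing cells. CCNG1, a p53 target, had 275, 297 and 339 CPM in shTXNRD1 cells, against 174, 176 and 180 in senescent control cells (log2 change 0.78 ± 0.08, adjusted p = 1.41e-06). With TRi-1, 1 was higher and 2 lower, CCNG2 among the lower (-0.59 ± 0.11, adjusted p = 0.00175), and between DMSO and senescent control cells 2 were lower, with MDM2 at -0.53 ± 0.09, adjusted p = 0.000707.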

How the data were processed

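RNA of IMR90 cells was read in 75 bp paired-end runs from KAPA RNA HyperPrep libraries, per the labels. The authors deposited unscaled counts: whole numbers for each Ensembl gene, with column totals that differ. Per the submitters' processing notes the tools were RSEM 1.2.3 and DESeq2 and the builds hg19 and mm10, with no role given; under RSEM the counts could be rounded estimates. For the aligner, the annotation, the strand setting and reads shared by near-identical genes, the choices were not given in the sources used here, so antisense and copied genes are uncertain: KIF4B (11 counts over all libraries, against 4554 of KIF4A), PTTG2 (0, against 5634 of PTTG1) and CDC20P1 (169, against 4143 of CDC20). Gene coordinates of hg19 were not used here.

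Symbols were joined by identifier (52301 of 57736 genes; genes without one held 0.68% of counts). TMM scaling preceded a fit in edgeR 4.0.16 in R 4.3.3 (robust quasi-likelihood F test, filterByExpr, 1 coefficient for each of the 5 groups, all 15 libraries, 10 residual degrees of freedom), tested on simulated data beforehand. P-values are two-sided, adjusted by Benjamini-Hochberg over 15994 genes within each of 6 comparisons, and called under 0.05. With 3 libraries against 3, an exact permutation test of a single gene cannot go below p = 0.1. Errors are SD for levels and SE for log2 changes, this SE being the absolute log2 change divided by the square root of F. Alternatives were DESeq2 1.42.0, other scalings and filters, a GC correction of the counts, a replicate term, fits of the compared groups alone, and each library left out. Same-numbered libraries deviated from their group means with correlations of -0.61 to 0.42, 6 of 30 above 0.1. All 3 pairs of DMSO and growing libraries were (0.42, 0.11 and 0.26), so the numbers may pair these groups. With 3 libraries a group, such correlations cannot settle which groups, if any, are paired.

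Values in every library are given for a panel (MKI67, CCNB1, CDK1, PLK1, TOP2A, FOXM1 and BIRC5), for the 3 largest changes each way per comparison and for genes called against the majority. Genes of other lists were named from among the 2 smallest p-values each way, and not all of these were named. The members and lists were chosen with earlier results of these data known.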

Additional observations from a re-analysis of the deposited data

How the results depend on the processing

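Counts of members called, both directions together, stayed within 1.5 times in all 6 comparisons under every setting run. By direction, the GC correction moved the difference between the inhibitions to 25 lower and 5 higher, against 16 and 8. They were, in the order senescence, hairpin, TRi-1, gap between the senescent controls, DMSO against growing and difference between the inhibitions, 50, 36, 32, 39, 49 and 24. DESeq2 gave 50, 36, 28, 36, 49 and 22, and a mean CPM of at least 5, which kept 46 members, gave 46, 34, 34, 39, 45 and 24. With the replicate block, a term for the number shared by all groups, they were 50, 37, 30, 35, 49 and 24. Between DMSO and growing cells, where the numbers may pair the libraries, the block changed no call of a member. Being shared by all groups, it cannot show what pairing those groups alone would change. Elsewhere the samples share a number, and pairing was not settled (5 of 15 libraries correlated best with their own). Leaving out each library gave 50 throughout, 34 to 39, 23 to 28, 30 to 34, 49 throughout and 22 to 24. Over all genes, TRi-1 against DMSO had 3176 calls, against 5542 with the GC correction and 5381 with the compared groups alone, and DMSO against senescent control had 2595, against 5299 with the GC correction.

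Signs were followed for genes called in the main fit and for a limited set of uncalled ones. Among these values they turned in 8 genes, each in a comparison where it was not called. Other uncalled members were not followed, such as the 26 of the difference between the inhibitions. For CCNA2 with shTXNRD1 the log2 change became 0.0259 (upper-quartile scaling) and 0.0371 (compared groups alone), and ran from -0.1475 to 0.0717 with each library left out. For ECT2 in DMSO against growing it became 0.0599 (mean CPM of at least 5), 0.1326 (GC correction, called) and 0.0081 (compared groups alone), and ran from -0.0852 to 0.0439. The GC correction turned CCNB1 (-0.0522), PTTG1 (-0.0585) and KIF18A (-0.0176) with shTXNRD1, and ECT2 (0.0645) and FOXM1 (-0.0525) with TRi-1. With each library left out, PTTG1 with shTXNRD1 ran from -0.0675 to 0.1424, FOXM1 with TRi-1 from -0.0286 to 0.0941, PLK1 with TRi-1 from -0.2349 to 0.0335, and AURKA in DMSO against senescent control from -0.0046 to 0.0589. The cause was not tested. Of 1884 gene values followed with a library left out, 109 lost a call and 2 gained one. Gains in members not followed are outside this count. Without shTXNRD1 replicate 3, for example, 37 members were called lower with the hairpin, against 34 with all libraries. The lowest member count, 8 for CDC25C, sets the limit of depth.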
